A study of Homo sapiens with 3 samples.

Results

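OR1 and OR2 are osimertinib-resistant lines that were raised from the same parental line, H1975, and the genes described here are those whose expression differed from H1975 in OR1 while OR2 remained close to H1975. A gene was taken when its ratio OR1/H1975 was at least 2 or at most 0.5 and its ratio OR2/H1975 lay within 0.67 to 1.5, or when its signal appeared or disappeared in OR1 alone. Of 43316 gene names on the array, 22418 were well above background in at least 1 of the 3 lines, and 639 of these (2.85%) met the rule. Higher expression in OR1 alone was found for 399 genes (1.78%), of which 219 were up-regulated and 180 were switched on. Lower expression in OR1 alone was found for 240 genes (1.07%), of which 206 were down-regulated and 34 were switched off. Both ratios were used to choose these genes, so the ratios are given as a description, and no test of them is possible on the same arrays.

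H1975 (NCI-H1975) is a non-small cell lung cancer line with mutated EGFR that is sensitive to osimertinib, an inhibitor of mutant EGFR. OR1 and OR2 were both obtained by raising the osimertinib dose stepwise to 2 μmol/L during 4 months, and all 3 lines were grown in RPMI medium with fetal bovine serum. Total RNA of each line was read on 1 single-colour Agilent array, and the 3 arrays shared 1 slide. Whether osimertinib was present when RNA was taken is not stated in the sources used here. OR1 is 1 selected line on 1 array, so what belongs to selection with osimertinib, to the founding cells of OR1 and to the single culture cannot be told apart.

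Intensities below are those of the scanner software, corrected for background but not scaled between arrays, and each ratio was computed after division by the 75th percentile of the array, which was 138 in OR1, 157 in H1975 and 162 in OR2. There were no replicates, so no p-value was computed and the only error is the technical SD that the software's error model gives a log2 ratio, with a median of 0.20 for OR1/H1975. The median SD was 0.21 in the up-regulated and down-regulated classes, 0.49 in the switched-off class and 1.45 in the switched-on class, beside a median log2 bound of 1.61 in the latter. This SD leaves out the variation between cultures. Where a line was not well above background, the lowest intensity called well above background on its array (12.6 in H1975 and OR2, 11.4 in OR1) took its place unless its own intensity was higher, and the ratio is then a bound. For 148 of the 180 switched-on and 26 of the 34 switched-off genes every line not well above background was also under that lowest intensity. The lines were checked against markers of other cells. KRT8 and KRT18, keratins of simple epithelia, were at intensities between 9361 and 74998 in all 3 lines, while EPCAM, an epithelial surface protein, was at 18987 in H1975, 616 in OR1 and 1415 in OR2. Of 9 epithelial markers measured, 6 were at most 0.5 in OR1 and 4 in OR2, beside 9.34% and 8.41% of all genes. Of the 9, NKX2-1 was lower in OR1 alone. Of the markers of fibroblasts, immune cells and endothelium, 4 of 8, 3 of 6 and 3 of 6 on the array were measured, and 1 fibroblast marker (LUM) and 1 endothelial marker (PECAM1) were higher in OR1 alone. Among the others, OR1/H1975 was 1.45 for COL1A1, 0.162 for COL1A2 and at most 0.773 for FAP of the fibroblast markers, and 0.664 for CDH5 and 0.776 for VWF of the endothelial ones. Of the immune markers, CD14 was 4.25-fold higher in OR1 and 6.56-fold in OR2, and PTPRC, the leukocyte marker, was between 20.5 and 21.0 in the 3 lines. The part of such cells in the other results was not tested.

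Background for some of these genes, though not for the set as a whole, is the biology of epithelial cells that take on mesenchymal features. In such cells, transcription factors of the ZEB, SNAI and bHLH families repress epithelial junction genes, and matrix proteins, matrix cross-linking enzymes and contractile proteins become more abundant. NKX2-1 is the transcription factor that maintains lung epithelial identity, and small nucleolar RNAs (snoRNAs) guide the chemical modification of ribosomal RNA.

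At a ratio of 2, without regard to OR2, 2006 genes (8.95%) were higher in OR1 and 2094 (9.34%) were lower. The genes changed in OR1 alone were 19.9% of the 2006 and 11.5% of the 2094. When the rule was mirrored, 368 genes (1.64%) were changed in OR2 alone, fewer than in OR1 under this scaling. All these ratios share the single H1975 array.

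**Figure D1:**
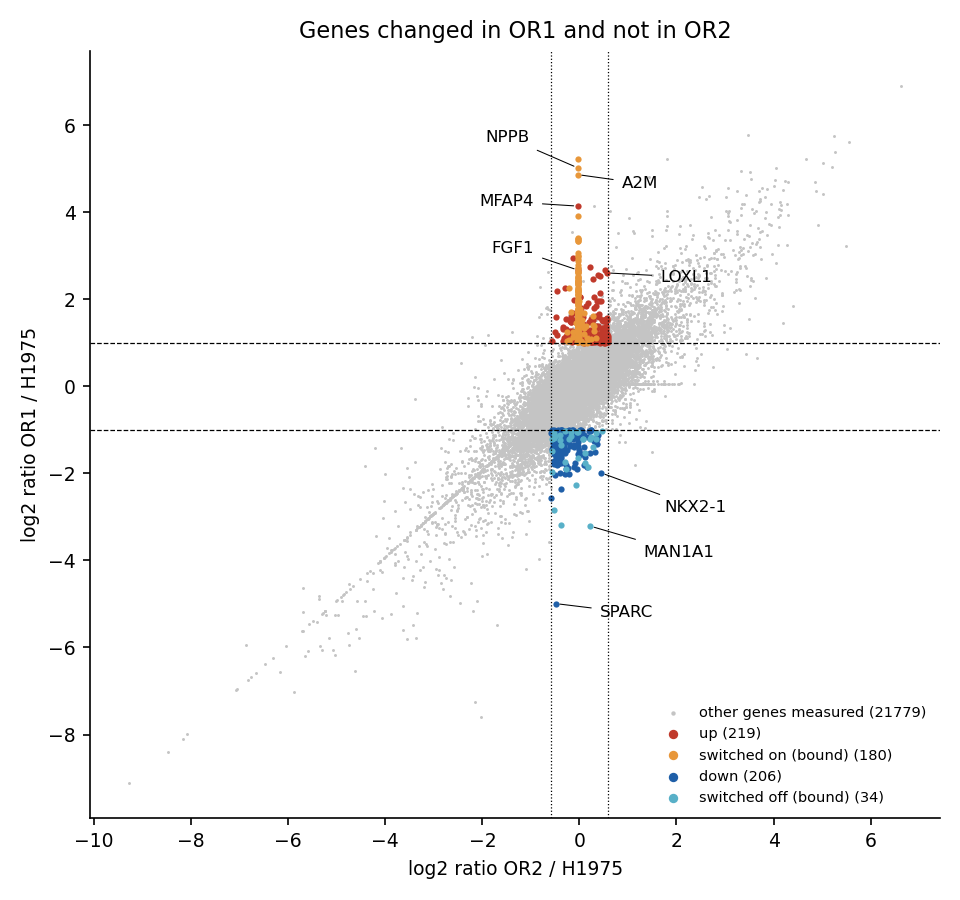
Each point is a gene that was well above background in at least 1 line, with log2 OR2/H1975 on the x axis and log2 OR1/H1975 on the y axis. Dashed lines mark OR1/H1975 of 2 and 0.5, dotted lines mark OR2/H1975 of 0.67 and 1.5, and the 219, 180, 206 and 34 coloured genes fill the parts of the plot between the dotted lines that the rule defines. Most switched-on genes form a vertical line, with H1975 and OR2 both at the background bound for 148 of 180, and their OR2 position is not a measured ratio.

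Among the 219 up-regulated genes the median ratio was 2.27 in OR1 and 1.24 in OR2, and 15 genes were at least 4-fold higher. OR1 compared directly with OR2 was at least 2-fold for 93 of the 219. Among the 180 switched-on genes the median bound was 3.05, 50 had a bound of at least 4, and 174 were at least 2-fold above OR2 or its bound. Among the 206 down-regulated genes the median ratio was 0.437 in OR1 and 0.780 in OR2, and OR1/OR2 was at most 0.5 for 87. Many members thus passed the rule with OR2 displaced in the same direction inside the allowed window. By annotation, 102 of the up-regulated, 64 of the switched-on, 145 of the down-regulated and 16 of the switched-off genes had a RefSeq mRNA accession. Probes with a RefSeq noncoding accession made up 57 of the up-regulated genes against 17 of the down-regulated genes. The shares of these accessions among all genes measured are not given here, so no excess can be read from the counts. The snoRNAs SNORA38B, SNORA44 and SNORA62, described below, are among the 57.

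Among the genes changed in OR1 alone and measured in all 3 lines, the highest ratio was that of MFAP4, a glycoprotein of elastin microfibrils (NM_002404, hg19 chromosome 17, probe from 19286813 to 19286872). MFAP4 was read at 217 in H1975 and 218 in OR2 but at 3347 in OR1, so that OR1/H1975 was 17.6 (log2 4.14 ± 0.21, technical SD) and OR2/H1975 0.978. OR1 stood apart from both other lines, which did not differ beyond the technical SD. The neighbouring genes MAPK7 and RNF112 had OR1/H1975 ratios of 1.85 and 0.657.

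LOXL1, a lysyl oxidase-like enzyme that cross-links elastin, was at 341 in H1975, 1817 in OR1 and 517 in OR2 (OR1/H1975 6.08, OR2/H1975 1.48). OR2 lay near the upper edge of the allowed window, and OR1 was still 4.12-fold above OR2. Of 3 noncoding neighbours of LOXL1 on chromosome 15, 2 were higher in OR1 alone as well. LOXL1-AS1, the antisense transcript, had an OR1/H1975 of 2.59 beside an OR2/H1975 of 0.790, and lnc-STOML1-1, with its probe 41.3 kb from that of LOXL1, had 4.13 and 1.01. STOML1 on the other side had 1.81 and 1.51. IGFBP7, a secreted binding protein of insulin-like growth factors, was at 397, 1253 and 520 in H1975, OR1 and OR2 (OR1/H1975 3.60), and a second IGFBP7 probe gave 4.20.

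Genes of contractile cells were among the higher genes. CSRP2, a LIM-domain protein of smooth muscle, was at 642 in H1975, 2486 in OR1 and 885 in OR2 (4.42-fold in OR1). ACTA2, smooth muscle actin, was at 82.5 in H1975, 185 in OR1 and 82.8 in OR2 (2.56-fold). Of 19 mesenchymal genes measured, ACTA2 and SPARC were the only ones changed in OR1 alone, in opposite directions. TAGLN and CNN1, also of smooth muscle, were past 2-fold in both lines and are therefore not members, with ratios of 20.5 and 16.3 in OR1 beside 6.39 and 3.51 in OR2.

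Receptors and ligands also appeared among the up-regulated genes. BDKRB1, the bradykinin B1 receptor, was at 67.3 in H1975, 378 in OR1 and 99.3 in OR2 (6.41-fold in OR1). CD70, a TNF superfamily ligand, was bright in every line, with 2425 in H1975, 5984 in OR1 and 3629 in OR2 (2.81-fold). TRPM2, a calcium-permeable channel, was at 362, 817 and 386 (2.57-fold), with OR2 at the level of H1975. FGF1, a fibroblast growth factor, had 76.4 in H1975, 426 in OR1 and 77.1 in OR2 (6.36-fold), but its other probes did not give the same picture. A further FGF1 probe had a bound of at least 1.76, and the third, on another transcript, had a ratio of 0.592. The FGF1 value therefore belongs to its probe and not to all FGF1 transcripts. No receptor tyrosine kinase out of 36 measured and no SRC family kinase out of 8 measured was changed in OR1 alone, which is near the 2.85% of all genes for lists of this size.

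**Figure D2:**
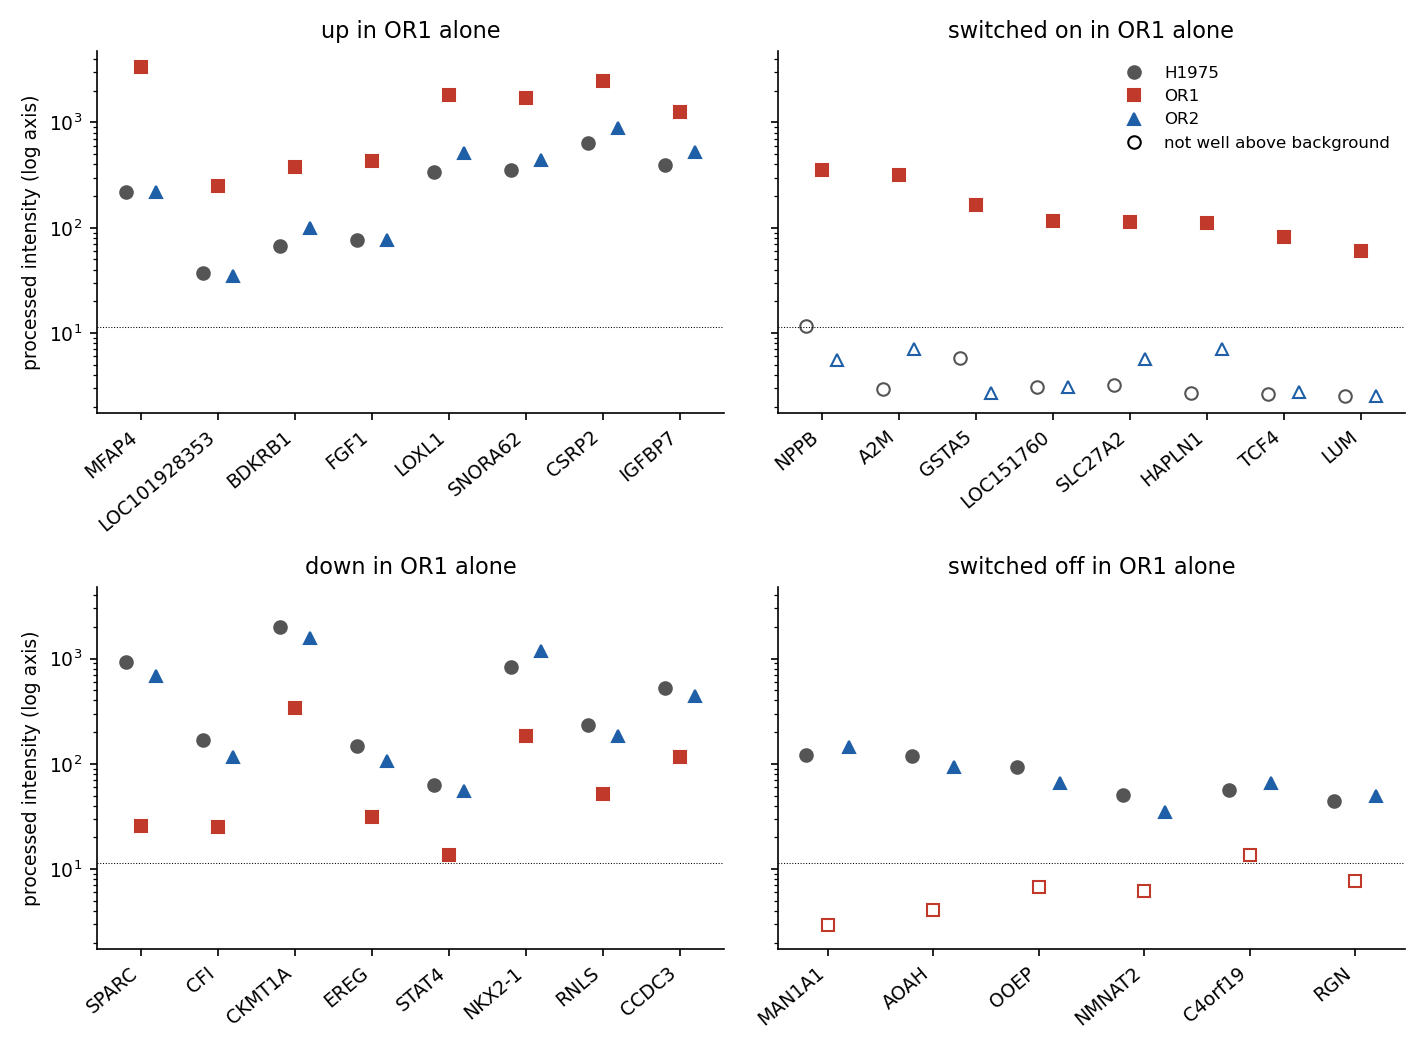
Processed intensity (log axis, not scaled between arrays) of leading genes of the 4 classes in H1975, OR1 and OR2, with 1 array a line. Open symbols were not well above background and the dotted line marks the lowest intensity called well above background on any array, 11.4. In the upper panels OR1 lies above both other lines for every gene, from 217 and 218 to 3347 for MFAP4, and in the lower panels it lies below both.

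Switched-on genes were not well above background in H1975 or OR2. Their technical SDs were wide, and 12 of the 180 passed 2-fold by more than 2 of these SDs. NPPB, the precursor of B-type natriuretic peptide, was at 357 in OR1 and at 11.6 in H1975 and 5.53 in OR2, both not well above background, which made it at least 32.4-fold higher in OR1. A second NPPB probe was also read in OR1 only, with at least 10.74-fold. NPPA, the related peptide gene 9.41 kb away, had a ratio of 0.780 in OR1. A2M, the protease inhibitor alpha-2-macroglobulin, was at 320 in OR1, 2.91 in H1975 and 7.13 in OR2 (at least 29.1-fold higher). Its nearest measured neighbour, A2M-AS1, was higher in both lines, 3.08-fold in OR1 and 1.98-fold in OR2. HAPLN1, a link protein of hyaluronan matrix, was at 112 in OR1, 2.69 in H1975 and 7.04 in OR2 (at least 10.2-fold). LUM, the matrix proteoglycan lumican, was at 59.8 in OR1 beside 2.50 and 2.53 (at least 5.43-fold, log2 2.44 ± 1.46, technical SD). SLC27A2, a fatty acid transport protein, was at 114 in OR1 beside 3.18 and 5.72 (at least 10.4-fold).

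Alpha-class glutathione transferases, which conjugate glutathione to electrophiles, were read on 3 probes. GSTA5 was at 165 in OR1, 5.84 in H1975 and 2.67 in OR2 (at least 14.97-fold), and GSTA2 was at 68.2, 3.30 and 11.5 (at least 6.19-fold). GSTA4 was higher in both lines, 5.73-fold in OR1 and 4.38-fold in OR2. GSTA genes are near-identical in sequence, so reads of GSTA2 and GSTA5 may share RNA and their identity is uncertain. FRMD3 was at least 8.29-fold higher, and of its 3 other probes 1 was readable, with at least 5.33-fold.

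The switched-on signal with the highest bound came from a probe with no gene name, A_33_P3380252, at chromosome 3 from 110610877 to 110610936 of hg19. It was read at 408 in OR1, 4.89 in H1975 and 7.91 in OR2 (at least 37.0-fold higher). LOC151760, a noncoding transcript whose probe lies 1.36 kb away on the same strand, was at 115 in OR1, 3.06 in H1975 and 3.09 in OR2 (at least 10.5-fold). PVRL3, the nectin gene 242 kb from the first probe, was higher in both lines, 9.45-fold in OR1 and 17.2-fold in OR2. The probe sequences of both transcripts are shown because 1 of them has no other name in the files.

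A_33_P3380252, chr3:110610877-110610936, hg19, minus strand: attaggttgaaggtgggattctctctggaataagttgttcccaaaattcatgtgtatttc

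LOC151760, chr3:110612235-110612294, hg19, minus strand: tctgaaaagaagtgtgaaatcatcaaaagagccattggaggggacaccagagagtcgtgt

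Of the transcription factors of epithelial-mesenchymal transition, 8 of 14 on the array were measured and 3 were higher in OR1 alone, against 1.78% of all genes. TCF4, a bHLH factor, was at 81.1 in OR1, 2.66 in H1975 and 2.76 in OR2 (at least 7.36-fold higher, log2 2.88 ± 1.46, technical SD). LOC101927229, a noncoding neighbour 122 kb from it on chromosome 18, was switched on too, at 30.0 in OR1 beside 3.23 and 3.19 (at least 2.72-fold). ZEB2 was at 28.7 in OR1, 3.11 in H1975 and 11.4 in OR2 (at least 2.61-fold, log2 1.38 ± 1.47, technical SD), and a second ZEB2 probe gave at least 3.79-fold. Without the bounds, OR2/H1975 of ZEB2 was 3.56, between 2 intensities not well above background, so its place among the genes changed in OR1 alone depends on the bounds. KLF8 was at 48.6 in H1975, 127 in OR1 and 73.8 in OR2 (2.97-fold in OR1, 1.48-fold in OR2). Its second probe was not above background in any line, and with the median over probes KLF8 was 1.76-fold higher, outside the rule. ZEB1 was higher in both lines, 4.74-fold in OR1 and 5.14-fold in OR2, while SNAI1 was lower in both, at 0.367 and 0.284. The median log2 ratio of the 8 was 0.89 in OR1 and -0.03 in OR2, beside 0.05 and -0.04 for all genes measured. The -0.03 is the value that the bounds give when H1975 and OR2 are both not well above background, so it is not a measured ratio. Likewise, the 0.05 is the value that the bounds give for H1975 and OR1. TCF4 and ZEB2 were well above background in OR1 only, so they count among the 8 through OR1, and the 2 medians cannot be compared as measurements. None of 28 epithelial junction genes was changed in OR1 alone, which is near the 2.85% of all genes for a list of this size. Of the 28, 18 were at most 0.5 in each resistant line, beside 9.34% of all genes in OR1 and 8.41% in OR2.

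The lowest ratio among down-regulated genes was that of SPARC, a secreted collagen-binding matrix protein (NM_003118, probe on chromosome 5 from 151041040 to 151041099). SPARC was read at 928 in H1975 and 681 in OR2 but at 25.6 in OR1, so that OR1/H1975 was 0.0314 (log2 -4.99 ± 0.25, technical SD) and OR2/H1975 0.714. The nearest genes measured in all 3 lines, SLC36A1 and ATOX1, had ratios of 1.003 and 0.737 in OR1, both within 2-fold. Other matrix genes were lower in OR1 alone. COL6A2, a chain of collagen VI, was at 179, 45.6 and 136 in H1975, OR1 and OR2 (0.290), and a second COL6A2 probe gave 0.554. COL27A1 was at 708, 277 and 821 (0.446), with other COL27A1 probes at 0.836 and at most 0.388. Of 27 collagen chains measured these were the 2 changed in OR1 alone. Matrix genes thus lay on both sides, with MFAP4, LOXL1, HAPLN1 and LUM higher and SPARC and COL6A2 lower.

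NKX2-1 (NM_003317, probe on chromosome 14 from 36985718 to 36985777) was at 832 in H1975, 184 in OR1 and 1167 in OR2. OR1 was at 0.252 of H1975 (log2 -1.99 ± 0.20, technical SD), and OR2 was 1.36-fold higher than H1975, more than 2 technical SDs away in the opposite direction. SFTA3, a surfactant-associated gene 39.5 kb from it, showed the same order, with 85.2 in OR1, 174 in H1975 and 365 in OR2 (OR1/H1975 0.557, OR2/H1975 2.04), and lay outside the rule. The other neighbours MBIP and PAX9 had ratios of 0.940 and 0.387 in OR1 and 1.16 and 0.281 in OR2, so PAX9 was lower in both lines. Of 17 lung lineage genes measured, NKX2-1 was the only one changed in OR1 alone. NAPSA, a target of NKX2-1 in lung, was read at 25.1 in OR1, beside 37.2 in H1975 and 59.8 in OR2 (OR1/H1975 0.770, OR2/H1975 1.57).

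Ligands and signalling genes were also lower. EREG, the EGFR ligand epiregulin, was at 147, 31.2 and 106 in H1975, OR1 and OR2 (0.242), and it was the only one of 6 EGF family ligands measured that was changed in OR1 alone. FGF7 was at 42.7, 14.2 and 40.8 in H1975, OR1 and OR2 (0.378). STAT4, a cytokine-activated transcription factor, was at 62.4, 13.6 and 54.9 (0.248). The second probes of FGF7 and STAT4 were not above background in any line, and with the median over probes the ratios were 0.626 and 0.508, outside the rule. SEMA3A and SEMA3C, secreted guidance cues, had ratios of 0.432 and 0.435. GRB10, an adaptor of insulin and growth factor receptors, was bright in every line, at 7196, 3110 and 5235 (0.493), and a second GRB10 probe gave 0.423. The mitochondrial creatine kinase CKMT1A was at 1996, 342 and 1581 (0.195), and a second probe gave 0.179. CKMT1A has a near-identical copy, CKMT1B, so the probes may read both. CFI, a protease that inactivates complement, was at 169, 25.1 and 116 (0.170), with OR2 at the edge of the window (0.6702). TOP2A, the topoisomerase of dividing cells, was at 1768, 660 and 1367 (0.426), the only one of 56 cell cycle genes measured that was changed in OR1 alone.

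Switched-off genes had lower intensities in H1975 than down-regulated genes, with medians of 32.0 and 226. MAN1A1, a Golgi mannosidase that trims N-glycans, was at 120 in H1975, 2.95 in OR1 and 144 in OR2, at most 0.108 of H1975 in OR1. AOAH, a lipase that inactivates lipopolysaccharide, was at 118, 4.07 and 93.6 (at most 0.110). OOEP, named for its expression in oocytes, was at 93.3, 6.82 and 66.5 (at most 0.139). NMNAT2, an enzyme of NAD synthesis, was at 50.9, 6.13 and 35.1 (at most 0.256). The intensity of RGN, a calcium-binding protein, was 44.0, 7.79 and 49.3 (at most 0.296). Of the 34 genes, 4 were at most 0.25 of H1975.

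Many snoRNAs were among the higher genes. H/ACA box snoRNAs, which guide pseudouridylation, are named SNORA, and 25 of 95 measured (26.3%, against 1.78% of all genes) were higher in OR1 alone, with none lower. The list was drawn up after these values were seen. The median log2 ratio of all 95 was 0.47 in OR1 and -0.24 in OR2. Of the 95, 91 were higher in OR1 than in OR2, beside 13030 of all 22418 genes measured. Here and in the lists below such counts use the bounds, and a gene at the bound in both resistant lines is counted as higher in OR1. The 13030 thus includes genes with no measured difference. C/D box snoRNAs, which guide 2′-O-methylation and are named SNORD, had 10 of 128 higher in OR1 alone (7.81%) and medians of 0.55 and -0.01. Small Cajal body RNAs had 1 of 20, too few to set against the 1.78%. Sign and size of these medians depend on how the arrays were scaled. When the arrays were scaled on 7 spike-in probes, which lowered the median of all genes in OR1 by 0.59, the SNORA median became -0.12 and the SNORD median -0.04, still 0.42 and 0.50 above the median of all genes under that scaling.

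SNORA62 was at 354 in H1975, 1705 in OR1 and 443 in OR2 (5.50-fold in OR1). SNORA44 was at 146, 617 and 123 (4.81-fold), SNORA38B at 35.0, 178 and 48.4 (5.79-fold) and SNORA48 at 1651, 5418 and 1920 (3.74-fold). SNORA67 and SNORA57 were the brightest of the 25, at 21103 and 15028 in OR1 beside 8096 and 6177 in H1975 (2.97-fold and 2.77-fold). The snoRNAs are cut from introns of other genes, and 81 of the 95 had 1 measured host by the reference position of the snoRNA's name. The probe's own position was not used, so a probe may lie outside the host. SNORA40 was assigned to TAF1D with its probe on chromosome 2, while the probe of SNORA1, with the same host, is on chromosome 11. Of the 63 distinct hosts, 1 was changed in OR1 alone, NOP56, a protein of C/D box particles, with ratios of 2.13 in OR1 and 1.33 in OR2. Its snoRNA SNORA51 was 9.26-fold higher in OR1 but lay outside the rule. The host median log2 ratio was 0.12 in OR1 and 57 of the 81 snoRNAs were above their host. NOL11, host of SNORA38B, had a ratio of 1.09 in OR1, SNHG12, host of SNORA44, had 0.988 and EIF4A1, host of SNORA48, had 1.04. The probe sequences of the 3 snoRNAs with the highest ratios among those changed in OR1 alone, and of SNORA48, are shown to give the stretch that each probe reads.

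SNORA38B, chr17:65736820-65736879, hg19, plus strand: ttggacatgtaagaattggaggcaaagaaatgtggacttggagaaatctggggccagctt

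SNORA62, chr3:39452639-39452698, hg19, plus strand: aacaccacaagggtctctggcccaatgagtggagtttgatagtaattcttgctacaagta

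SNORA44, chr1:28906893-28906952, hg19, minus strand: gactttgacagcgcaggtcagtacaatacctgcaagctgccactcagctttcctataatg

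SNORA48, chr17:7478106-7478165, hg19, plus strand: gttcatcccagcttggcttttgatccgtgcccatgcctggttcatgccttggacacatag

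The probes are 60 bases long. A probe within an intron does not distinguish the mature snoRNA from unspliced host RNA, and this was not tested.

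Interferon-stimulated genes, many of which carry a promoter element called ISRE, had a lower median in OR1. Of 46 measured, 6 were lower in OR1 alone (13.0%, against 1.07% of all genes) and GBP1 was higher. The median log2 ratio of the 46 was -0.83 in OR1 and -0.36 in OR2. Only 6 of the 46 were higher in OR1 than in OR2, beside 13030 of all 22418 genes measured. The OR1 median stayed negative under every scaling and background correction tried, between -1.42 and -0.72. IFIT3, an antiviral protein, was at 3731 in H1975, 1503 in OR1 and 3478 in OR2 (0.459). RSAD2, the antiviral enzyme viperin, was at 631, 254 and 847 (0.460), so H1975 lay between OR1 and OR2. Its second probe was not above background in any line, and the median over probes was 0.702, outside the rule. MX1, an antiviral GTPase, was at 666, 282 and 686 (0.484), with OR2 at the level of H1975. PARP9 was at 756, 262 and 565 (0.395), but its second probe gave 0.846. OAS2 and IFI44 had ratios of 0.485 and 0.488. GBP1, a guanylate-binding protein, was at 81.4, 154 and 114 (2.16-fold higher in OR1). Of the 46, 21 were at most 0.5 in OR1 and 11 in OR2, beside 9.34% and 8.41% of all genes. Some, such as BST2, were higher in both, with ratios of 4.85 and 4.002.

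Promoter sequences of 3 of the lower genes are shown because they hold the ISRE core, spelled GAAANNGAAA and searched on both strands. Sequences are from RefSeq on GRCh38.p14, 250 bases before to 50 after the start of the gene. The core was found in 1255 of 35116 promoters (3.57%), in 22 of the 34 measured interferon-stimulated genes with a promoter in the table (64.7%) and in 3 of the 5 lower genes with one. The promoter of GBP1, the higher gene, holds it as well. Capitals mark the core. It lies before the start in IFI44 and IFIT3 and just past it in MX1. OAS2 was not matched.

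IFIT3, chr10:89327747-89328046, GRCh38.p14, plus strand: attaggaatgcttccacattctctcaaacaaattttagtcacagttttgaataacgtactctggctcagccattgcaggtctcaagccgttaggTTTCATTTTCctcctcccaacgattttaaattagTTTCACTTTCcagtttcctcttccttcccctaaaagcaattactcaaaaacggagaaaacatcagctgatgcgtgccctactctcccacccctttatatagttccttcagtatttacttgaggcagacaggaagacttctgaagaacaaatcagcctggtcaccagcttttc

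IFI44, chr1:78649539-78649838, GRCh38.p14, plus strand: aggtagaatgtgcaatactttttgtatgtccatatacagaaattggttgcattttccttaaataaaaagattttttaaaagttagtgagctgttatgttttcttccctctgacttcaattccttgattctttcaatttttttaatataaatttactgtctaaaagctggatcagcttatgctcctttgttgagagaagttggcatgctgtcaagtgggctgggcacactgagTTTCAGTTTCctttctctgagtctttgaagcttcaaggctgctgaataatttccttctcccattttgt

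MX1, chr21:41420308-41420607, GRCh38.p14, plus strand: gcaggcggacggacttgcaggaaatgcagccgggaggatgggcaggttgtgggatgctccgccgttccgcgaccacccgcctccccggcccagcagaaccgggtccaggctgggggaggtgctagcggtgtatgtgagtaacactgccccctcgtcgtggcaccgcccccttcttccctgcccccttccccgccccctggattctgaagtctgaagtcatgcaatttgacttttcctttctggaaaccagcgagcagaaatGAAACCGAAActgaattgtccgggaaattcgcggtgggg

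Pregnancy-specific glycoproteins (PSG), secreted immunoglobulin-family proteins of the placenta, lie in 1 cluster on chromosome 19. Of 7 measured, 5 were higher in OR1 alone (71.4%, against 1.78% of all genes). This list too was drawn up after the values were seen. PSG9 was at 158 in H1975, 630 in OR1 and 118 in OR2 (4.54-fold), PSG8 at 625, 1606 and 530 (2.93-fold) and PSG6 at 86.6, 245 and 87.1 (3.23-fold). PSG1 and PSG2 were 2.79-fold and 2.36-fold higher. All 7 were higher in OR1 than in OR2, but the list was chosen with these values known, so this is a description and not support. The median log2 ratio of the 7 was 1.48 in OR1 and -0.46 in OR2. PSG sequences are alike, so their probes may share RNA and the 5 are not independent. Further along the same chromosome, IRGQ, ZNF428 and ZNF575 were 4.13-fold, 2.88-fold and 2.40-fold higher in OR1 alone, all within 56.01 kb of the IRGQ probe. Between and beside them PINLYP, ZNF576 and XRCC1 had OR1 ratios of 4.50, 1.98 and 1.80, and SRRM5 had a bound of at least 2.38.

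Protocadherins, cell adhesion proteins of which many are encoded in clusters on chromosome 5, had 5 of 39 measured genes higher in OR1 alone (12.8%, against 1.78% of all genes) and none lower. Of the 5, 4 lie in these clusters. PCDHA12 was at 30.8 in H1975, 78.1 in OR1 and 44.8 in OR2 (2.89-fold), PCDHGB4 at 151, 305 and 201 (2.30-fold), PCDHB2 at 196, 383 and 296 (2.22-fold) and PCDHB13 at 465, 831 and 631 (2.04-fold). OR2 was intermediate for all 4. The median log2 ratio of the list was 0.94 in OR1 and 0.21 in OR2. Of the 39, 33 were higher in OR1 than in OR2, beside 13030 of all 22418 genes measured. These medians depended on the scaling. With spike-in scaling they were 0.34 in OR1 and 0.29 in OR2, and all genes in OR1 had a median of -0.54.

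**Figure D3:**
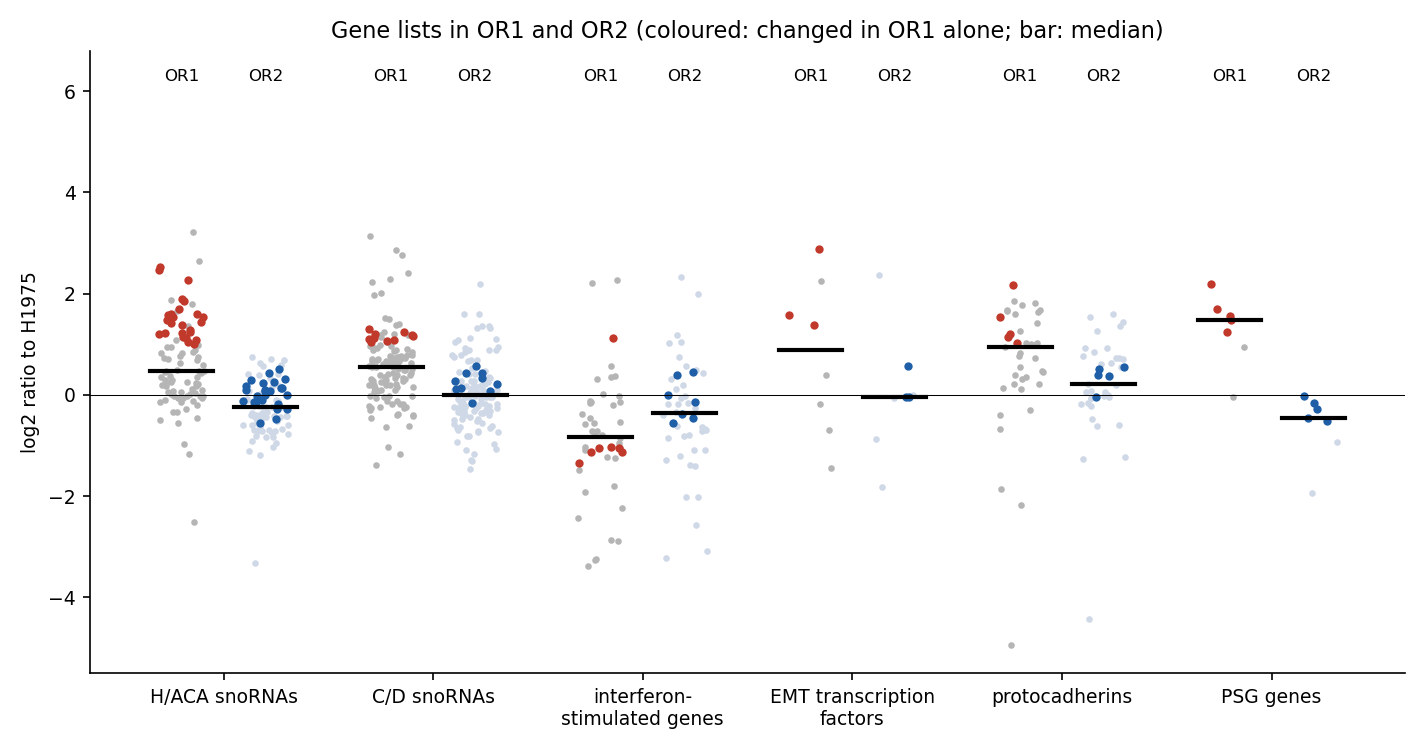
Log2 ratio to H1975 of each measured gene of 6 lists, in OR1 (left) and OR2 (right) of each pair, with bars at the median. The OR2 bar of the EMT transcription factors lies at a value set by the bounds and is not a measured ratio. Coloured points are the genes changed in OR1 alone, 25 of 95 H/ACA snoRNAs and 6 lower and 1 higher of 46 interferon-stimulated genes among them. The medians of H/ACA snoRNAs lie at 0.47 in OR1 and -0.24 in OR2, and the first turns to -0.12 with spike-in scaling.

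Of 61 gene lists drawn from pathways, families and cell types, 25 had no gene changed in OR1 alone. With 2.85% of all genes changed, lists of this size would hold few such genes, so a count of 0 is near the background. Among the 25 were the 45 genes measured of the TGF-beta and BMP pathway, 40 matrix proteases and inhibitors, 32 hypoxia-response genes, 32 NRF2 and glutathione genes, 88 genes of the mitochondrial respiratory chain and 79 ribosomal proteins. In the Wnt pathway, 1 of 35 was a member, AXIN2, an inhibitor induced by the pathway, with at least 2.15-fold, but its second probe was not above background in OR1. In the Notch pathway, NOTCH4 was 2.55-fold higher and DTX4 was at 0.463, of 23 measured. Single members were found for IGF-binding proteins (IGFBP7, 1 of 7), p53 targets (FAS, 0.473, 1 of 25) and HOX genes (HOXA7, 0.382, 1 of 13).

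By position, the lower genes were unevenly spread. Chromosome 7 held 59 of the 240, which is 5.14% of its 1147 measured genes, and chromosome 13 followed with 9 of 393 (2.29%). Between 60 and 160 Mb of chromosome 7, 47 of 730 genes (6.44%) were lower in OR1 alone. Over all 730 genes the median ratio was 0.623 in OR1 and 0.740 in OR2, and 33.7% were at most 0.5 in OR1 and 16.8% in OR2, beside 9.34% and 8.41% of all genes measured. The median over the stretch was thus below 1 in both lines, and lower in OR1 than in OR2, with the same H1975 array under both ratios. Its first 10 Mb differed, with a median log2 ratio of -0.26 in each line and 4 higher and 0 lower members among 79 genes. Between 90 and 100 Mb, 12 of 111 genes were members, among them AKAP9, SGCE and TRIM4, with a median log2 ratio of all 111 of -0.98 in OR1 and -0.56 in OR2. Between 110 and 120 Mb, 4 of 24 were members (CAPZA2, IMMP2L, TES and ZNF277). Without the 47 genes of this stretch, 193 of 21626 placed genes (0.892%) were lower in OR1 alone. Copy number was not measured. The higher genes showed no such chromosome, with shares between 1.02% (chromosome 13) and 2.50% (chromosome 19).

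**Figure D4:**
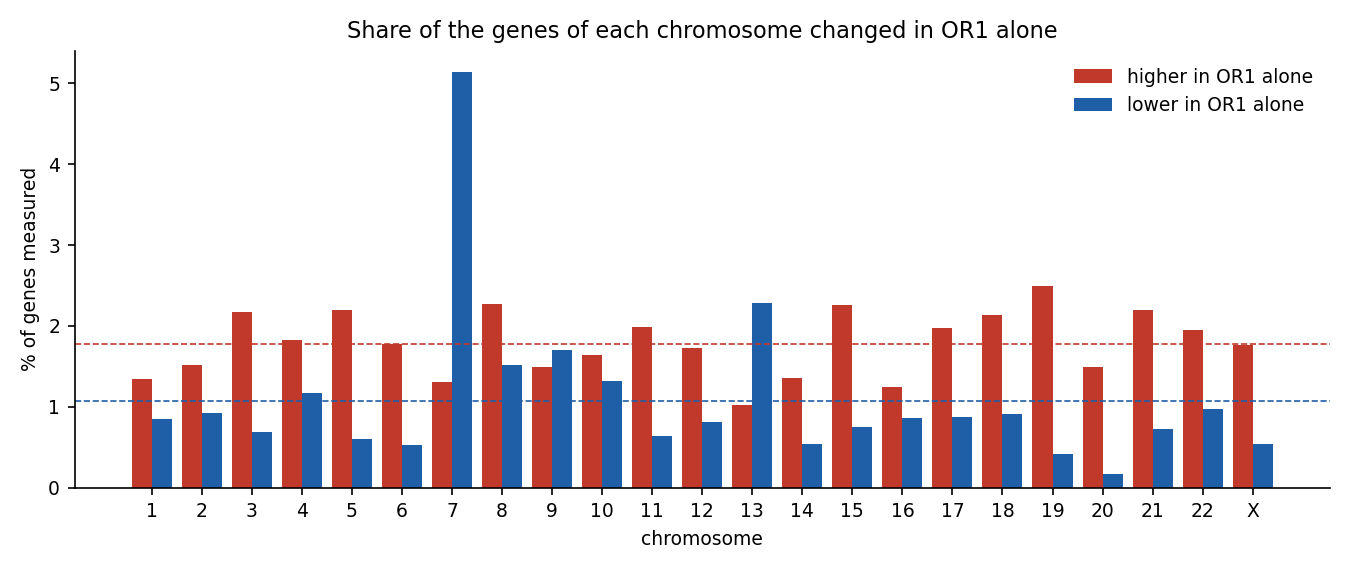
Share of the measured genes of each chromosome that were higher (red) or lower (blue) in OR1 alone, in percent, with dashed lines at the shares over all genes, 1.78% and 1.07%. Chromosome 7 stands out for lower genes, with 5.14%.

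Other probes of the same genes, which the rule did not use, read the same RNA on the same arrays. Of the 639 genes, 193 had at least 1 other probe, with 281 probes in all, of which 139 were readable on the side where the gene was high. Of the 139, 133 (95.7%) had a ratio in the same direction, 71 (51.1%) were past 2-fold, and 41 of these also had OR2 within the window. Requiring signal on the side where the gene was high favours the same direction, so the 95.7% is not independent support. For switched-on genes, 11 of 74 other probes were readable, and all 11 had the same direction. The other 446 genes had a single probe.

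Close to the thresholds, the choice of members is narrow. ATF5, a stress-response transcription factor, entered with 2.00 and GLIPR1 stayed out with 1.996. PRKCD, a protein kinase C, entered with 0.499 and LRP11 stayed out with 0.501. By the window on OR2, FKBP8 entered at 1.498 while SNORA6, 6.29-fold higher in OR1, stayed out at 1.503, and ADK entered at 0.673 while BNC2, at 0.374 in OR1, stayed out at 0.6695. A further 549 genes were read in OR1 alone with a bound under 2, and 205 were lost in OR1 alone with a bound above 0.5, so for these a 2-fold change was not detectable at their intensity.

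The number of genes in each class moved with the processing, as the plot of class counts by processing shows. Of the 639 genes, 89.5% met the rule after quantile normalization, 56.5% after spike-in scaling and 24.4% after normexp background correction. At 3-fold in place of 2-fold, 166 genes remained, 75.9% of them higher.

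**Figure D5:**
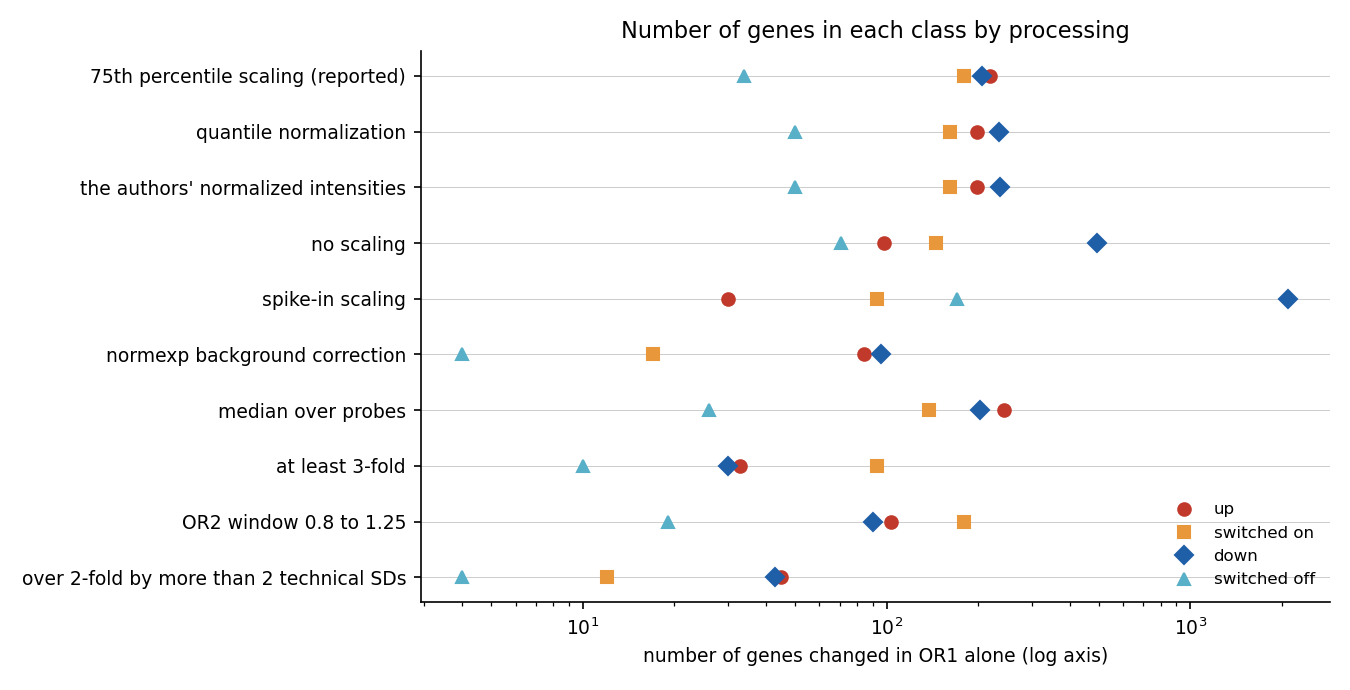
Number of genes in each class (log axis) under the reported processing and 9 others. Spike-in scaling gave 30 up-regulated and 2103 down-regulated genes in place of 219 and 206, and normexp background correction gave 17 switched-on genes in place of 180.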

How the data were processed

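RNA of H1975, OR1 and OR2 was measured on 1 array each. The deposited scanner files hold, per the file headers, intensity values from Agilent Feature Extraction 10.7.1.1 (the submitters' notes name 9.5.1.1), background-subtracted and spatially detrended by the authors and not scaled between arrays. A deposited table holds the authors' normalized intensity, used as an alternative. Control and outlier spots were left out, log2 intensities were averaged per probe, and each array's 75th percentile was subtracted. The probe with the highest mean stood for a gene name. Switched-on genes were well above background in OR1 alone, with a bound of at least 2. Switched-off genes were well above background in H1975 and OR2 alone, with a bound of at most 0.5. Intensity and the number of arrays limit the precision.

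The members, the 61 lists and the named genes (the largest changes of each class, up to 4 a list and those nearest the thresholds) were chosen with earlier results of these data known. 6 further lists, the neighbouring genes, and the stretch of chromosome 7 were chosen after seeing the values. Probe positions are on hg19. The rule was tested on simulated data. Python 3.11.15, numpy 2.4.6, pandas 2.3.3, matplotlib 3.10.9, R 4.3.3 and limma 3.58.1 were used, and normexp had an offset of 50. Alternatives were other scalings and background corrections, the median over probes, stricter ratios and windows, and no background filter.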

Additional observations from a re-analysis of the deposited data

Results flagged for a closer look

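NKX2-1 was singled out because its 2 ratios pointed in opposite directions. It was lower in OR1 (0.252 of H1975), while OR2/H1975 was 1.36, more than 2 technical SDs above 1. With 1 array a line the difference between OR1 and OR2 was not tested. It was the only one of the 94 named genes with this pattern.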

How the results depend on the processing

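The counts depended on the processing more than the direction of single genes did. Quantile normalization and the authors' normalized intensities gave 198 up-regulated genes, 235 and 237 down-regulated, 162 switched on and 50 switched off, and the share of higher genes among the members moved from 62.4% to 55.8% and 55.6%. Spike-in scaling gave 30 up, 2103 down, 93 on and 170 off (5.13% higher). No scaling gave 98 up, 493 down, 145 on and 71 off (30.1% higher). Normexp gave 84 up, 96 down, 17 on and 4 off (50.2% higher) and kept 24.4% of the members. At 3-fold there were 33 up, 30 down, 93 on and 10 off (75.9% higher). With OR2 held within a narrower window, 0.8 to its inverse, there were 103 up, 90 down and 19 off (72.2% higher). By more than 2 technical SDs there were 45 up, 43 down, 12 on and 4 off. Without a background filter there were 1706 up and 573 down (74.9% higher). With the median over probes, FGF1 (0.615) and ZNF680 (0.992) turned below 1. The same setting took STAT4 (0.508), KLF8 (1.76), RSAD2 (0.702), PARP9 (0.578), FGF7 (0.626), PHLDA1 (0.611) and COL27A1 (0.836) past the threshold, among others. With it, 76 of the 94 named genes were still changed in OR1 alone. No other named ratio changed direction under these settings, and 90 of the 94 named genes kept their class with quantile normalization, 45 with normexp and 67 with spike-in scaling. Requiring the plain OR2 ratio of switched-on genes to lie in the window, chosen after seeing the data, left 122. The cause of these shifts was not tested. For genes not well above background in a line, bounds replace ratios. No paired analysis was possible because each line had 1 array.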

Other observations

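The noncoding transcript LOC101928353 on chromosome 6 was at 36.9 in H1975, 250 in OR1 and 34.5 in OR2 (7.73-fold), and its second probe, which overlaps the first, gave 8.04. lnc-ARSJ-1 was switched on in OR1 on each of its 3 probes, with bounds of 10.65, 6.06 and 2.43. DUSP2, a phosphatase of ERK, was at 104, 259 and 150 (2.83-fold), and PHLDA1 was at 1024, 329 and 712 (0.366).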
